A study of Mus musculus with 15 samples.

Results

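The DNA repair genes described here are the 46 genes in both FPKM tables whose symbol begins with Fanc, Rad5, Xrcc, Msh, Mlh, Brca or Ercc followed by a digit or a letter, or is Lig1, Lig3 or Lig4. The choice was made on symbols and used no measured value, although earlier results of these data were known. The 46 stood among 11262 genes in the table of naïve and newly activated CD8+ T cells and among 11211 genes in the table of cytotoxic T lymphocytes (CTL). By main role, 13 belong to homologous recombination, 10 to the Fanconi pathway, 6 to mismatch repair, 10 to excision and single-strand break repair and 4 to end joining. Rad54l2, Xrcc6bp1 (now Atp23) and Ercc6l match the symbol rule but were put in no class.

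RNA sequencing gave 15 libraries in 5 groups of 3, all from P14 mice, whose transgenic T cell receptor recognises a peptide of lymphocytic choriomeningitis virus, so that most of their CD8+ T cells answer the same antigen. Naïve cells were sorted straight from lymph nodes as live CD8+ cells positive for TCRβ, CD62L-high and CD44-low. TCR activated cells had 24 h in culture with the gp33-41 antigen at 100 ng/mL, with IL-12 at 2 ng/mL and with IL-2 at 20 ng/mL, and the PI3Kdi group had the same with 10 µM IC87114, an inhibitor of the PI3K catalytic subunit p110δ. Both 24 h groups were sorted as live CD8+ cells, and no sort was stated for the CTL. CTL were activated for 48 h, grown in IL-2, washed on day 6 and then held for 24 h with 20 ng/mL IL-2 or with none.

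Mice behind the naïve and 24 h groups were females of 9 to 13 weeks, and cells of 3 mice were pooled for each replicate and shared out between the 3 conditions. The age and number of mice behind the CTL were not given, no other allele was named for any group, and the study's article does not report the CTL libraries. For its other P14 CTL the article states 3 mice for 3 replicates and females of 9 to 13 weeks. Whether this covers the CTL here was not stated. The treatment labels of replicates 2 and 3 of CTL with IL-2 name other interleukins, and these libraries were grouped by their titles. The tables used here hold FPKM only, and the read depth of each library was not given. The spacing of the lowest values gave an estimate of 9.8 to 14.6 megareads a library on the authors' scaled size.

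Each CD8 T cell marker on a list of 7 (Cd8a, Cd8b1, Cd3e, Cd3d, Cd3g, Lck and Cd2) was present in every group, with a summed level of 4137 to 4480.5 FPKM in naïve and 913 to 1059.7 FPKM in TCR activated libraries. The 5 activation markers, which include Gzmb and Il2ra, summed to 24.8 to 29.6 FPKM in naïve, 5538 to 6929 FPKM in TCR activated and 1024 to 1287 FPKM in PI3Kdi libraries. With the inhibitor Gzmb, Ifng and Cd44 were lower in limma (log2 fold changes of -3.08, -6.08 and -2.11), while Il2ra was not (0.025). Of 5 B cell markers, 4 were in the first table, led by Cd79b at a mean of 20.3 FPKM in naïve and 3.02 FPKM in TCR activated cells. NK and erythroid markers were not in that table, and of the myeloid and dendritic lists only Cd68, Itgam and Zbtb46 were. Zbtb46 was at means of 0.08, 0.57 and 0.12 FPKM in naïve, TCR activated and PI3Kdi libraries. Between naïve and TCR activated cells Itgam had a log2 fold change of -1.73 and Cd68 of 0.24. Pecam1, of the stroma list, was at a mean of 60.6 FPKM in naïve and 2.76 FPKM in TCR activated cells, and the CD4 T cell list summed to at most 1.48 FPKM in any of these libraries. All 3 groups had been sorted on CD8, and the part of any remaining other cells in the results was not tested.

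As background, homologous recombination copies a broken duplex from its sister chromatid, after the broken end has been resected to single-stranded DNA. Fanconi proteins unhook crosslinks between DNA strands at replication forks and pass the breaks to recombination. Mismatch repair corrects copying errors, excision repair replaces damaged bases, and end joining seals breaks without a template, as it does when lymphocytes assemble their antigen receptor genes.

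The first comparison asked what changed between naïve cells and cells with 24 h of TCR activation. Changes were tested with limma on log2(FPKM + 0.1) over every gene of a table, and a gene was counted as risen or fallen when its adjusted p was under 0.05 and its fold change over 2 or under 0.5. Of the 46 repair genes 22 rose, where 25.0% of all genes rose, and 1 fell, where 23.7% of all genes fell. Homologous recombination and Fanconi genes held most of the rises. Among these 23 genes 15 rose and none fell in limma. At an unadjusted p under 0.05, 0 of the 23 were lower, beside 4545 of all 11262 genes. Of the 20 mismatch, excision and end-joining genes 6 rose, a share near that of all genes, and 1 fell. The median log2 fold change was 2.89 over the first 23 genes and 0.33 over the other 20, against 0.005 over all genes.

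Before activation the classes stood far apart. In naïve libraries the mean log2(FPKM + 0.1) of the homologous recombination and Fanconi genes lay below that of the mismatch, excision and end-joining genes, with differences of -2.88, -2.87 and -2.97. In TCR activated libraries the difference was -0.52, -0.49 and -0.59. The groups did not overlap, and the gap, which was not tested, went from a mean of -2.90 (SD 0.05, n = 3) to -0.53 (SD 0.05, n = 3). Summed FPKM of the 13 recombination genes went from 37.0, 36.6 and 39.4 in naïve cells to 199.8, 216.8 and 201.9 after activation. For the 6 mismatch genes the sums were 94.7, 89.7 and 87.1 before and 125.4, 149.5 and 133.4 after. These are bulk RNA levels, in which fewer expressing cells and less RNA per cell cannot be told apart. Because 0.1 is added before the log, fold changes of genes near 0 are understated.

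**Figure D1:**
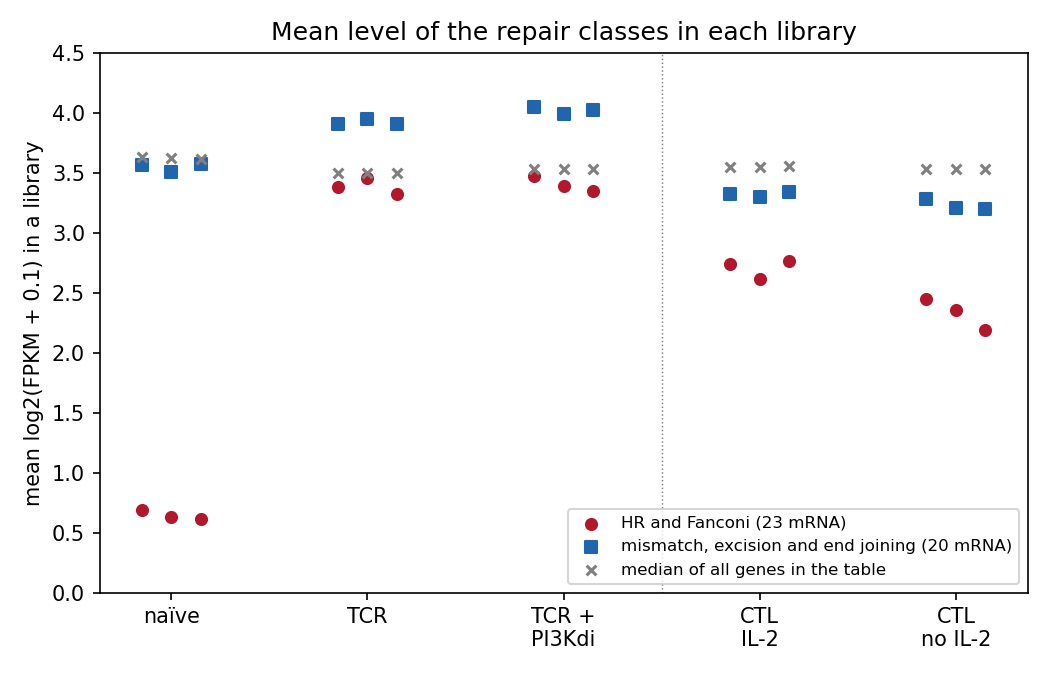
Mean log2(FPKM + 0.1) in each library of the 23 homologous recombination and Fanconi genes (circles) and the 20 mismatch, excision and end-joining genes (squares). Crosses mark the median over all genes of the table. The first set stood near 0.6 in naïve libraries and near 3.4 in activated ones, and the second between 3.5 and 4.05 in both; levels left and right of the dotted line come from tables normalised apart.

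Rad54l, whose product is a motor that helps a broken strand invade its template (gene ID 19366, chr4:116094261-116123700, mm10), had the largest fold change of the 46. It was at 0.20, 0.12 and 0.24 FPKM in naïve, 23.7, 26.8 and 24.3 FPKM in TCR activated and 28.2, 23.2 and 22.9 FPKM in PI3Kdi libraries. All 6 activated libraries stood far above the 3 naïve ones, and the activated groups overlapped each other. The log2 fold change on activation was 6.47 (SE 0.17, limma adjusted p = 7e-11). Rad54l has exons over those of Lrrc41 on the opposite strand. In all, 18 of the 46 genes have exons over another protein-coding gene, and although a stranded library kit was used, whether reads were counted by strand was not stated.

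Rad51ap1, whose product stimulates strand pairing, was at 0.34, 0.41 and 0.31 FPKM in naïve, 33, 37.5 and 39.6 FPKM in TCR activated and 34.2, 29.9 and 31.1 FPKM in PI3Kdi libraries, a log2 fold change of 6.34 on activation (SE 0.12, adjusted p = 1.3e-11). The naïve values rest on an estimated 8.2, 10.2 and 7.1 reads, so they are above 0 but loosely known. Both Rad54l and Rad51ap1 were thus near 0 in naïve cells and above 20 FPKM 24 h later.

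Brca1, which promotes end resection and brings in the BRCA2 complex, was at 0.44, 0.48 and 0.59 FPKM in naïve, 17.4, 17.6 and 14.1 FPKM in TCR activated and 19.8, 18.3 and 17.2 FPKM in PI3Kdi libraries. Brca2, which prepares resected ends for strand exchange, was at 0.84, 0.79 and 0.73 FPKM, 8.46, 7.70 and 7.08 FPKM and 9.02, 8.40 and 7.72 FPKM in the same order. Both rose with no overlap of naïve and activated libraries, by log2 fold changes of 4.77 (SE 0.14, adjusted p = 1.5e-10) and 3.14 (SE 0.13, adjusted p = 2e-09).

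Rad51l1, Rad51l3, Rad51c, Xrcc2 and Xrcc3, which assist strand exchange, differed among themselves. Rad51l1, an older symbol of Rad51b, was at 0, 0.05 and 0.03 FPKM in naïve libraries, the first of these a blank cell read as 0, and at 4.20, 4.11 and 3.59 FPKM after activation, a rise that passed. Xrcc3 rose by 3.37 and Xrcc2 by 1.68 on the log2 scale. Rad51c had a log2 fold change of 0.98 (adjusted p = 0.00084), just under the fold limit, and it passed with a pseudocount of 0.01 (1.06), with median scaling (1.09) and without replicate 3 (1.09). Rad51l3, an older symbol of Rad51d, was at 6.01, 5.87 and 5.52 FPKM in naïve, 4.80, 5.74 and 4.78 FPKM in TCR activated and 5.04, 5.11 and 5.17 FPKM in PI3Kdi libraries. Those ranges overlapped between naïve and TCR activated cells, and its log2 fold change of -0.19 was the lowest of its class (SE 0.12, adjusted p = 0.17).

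Rad54b, a relative of Rad54l, rose from 0.09, 0.01 and 0.03 FPKM to 3.95, 3.93 and 3.42 FPKM, and its exons overlap those of Fsbp on the same strand. Rad50, the scaffold of the complex that senses broken ends, was already at 13.1, 11.9 and 14 FPKM in naïve cells and had a log2 fold change of 0.83 (adjusted p = 1.2e-05), under the fold limit. Rad52, which anneals single strands, was at 10.9, 12.8 and 13.8 FPKM in naïve, 14.9, 11.3 and 10.7 FPKM in TCR activated and 12.1, 14 and 14.2 FPKM in PI3Kdi libraries. The 3 groups overlapped, with a log2 fold change of -0.04 on activation (SE 0.14, adjusted p = 0.83). Of the 13 recombination genes, 9 rose.

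In the Fanconi pathway 6 of 10 genes rose and none fell in limma. At an unadjusted p under 0.05, 0 of the 10 were lower, beside 4545 of all 11262 genes. Fancd2, whose product is ubiquitinated when a crosslink is met (gene ID 211651, chr6:113531640-113597020), led the rises. It was at 0.39, 0.36 and 0.39 FPKM in naïve, 19, 19.4 and 15.1 FPKM in TCR activated and 16.2, 14.4 and 13.1 FPKM in PI3Kdi libraries. Activated libraries did not overlap naïve ones, and the log2 fold change was 5.22 (SE 0.14, adjusted p = 8.8e-11). Fanci, its partner in the ubiquitinated pair, rose by 2.89 on the log2 scale.

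The core complex that ubiquitinates FANCD2 was uneven. Fanca was at 0.88, 0.77 and 0.76 FPKM in naïve, 17, 16.3 and 14.7 FPKM in TCR activated and 19.3, 17.1 and 16.2 FPKM in PI3Kdi libraries, a log2 fold change of 4.16 on activation (SE 0.12, adjusted p = 1.5e-10). Fancb was at 1.20, 1.31 and 1.24 FPKM, 9.94, 12.9 and 11 FPKM and 9.20, 8.81 and 9.17 FPKM in that order, a log2 fold change of 3.06 on activation (SE 0.13, adjusted p = 1.7e-09). Fancm, the translocase that anchors the complex to DNA, rose by 1.5, and Fancl, its ubiquitin ligase, rose by 1.03. The call for Fancl was lost with a pseudocount of 1 (0.94) and without replicate 3 (0.83).

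The other core complex genes, Fancc, Fance, Fancf and Fancg, were already at means of 2.92 ± 0.40, 11 ± 0.97, 3.39 ± 0.55 and 9.0 ± 1.11 FPKM in naïve cells (SD, n = 3). Their log2 fold changes of 0.27, 0.55, 0.48 and 0.31 were under the fold limit. Fancc, the smallest of these, was at 3.32, 2.92 and 2.53 FPKM in naïve, 3.40, 3.75 and 3.43 FPKM in TCR activated and 3.51, 4.09 and 3.46 FPKM in PI3Kdi libraries. Its 6 activated values lay just above its 3 naïve ones, with an adjusted p of 0.11 in TCR v naïve (SE 0.15). Apart from Fancl and Fancc, the Fanconi genes that rose were those under 3 FPKM in naïve cells, and those that did not were above it. This line was drawn after the values were seen, and the naïve level also enters the fold change.

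As a class, mismatch repair genes were expressed before activation, and 1 of 6 rose and 1 fell. Msh6, whose product takes part in the binding of mismatches (gene ID 17688, chr17:87975050-87990892), was at 23.6, 20.5 and 22.2 FPKM in naïve, 46.2, 56.6 and 47.1 FPKM in TCR activated and 68, 69.7 and 64.7 FPKM in PI3Kdi libraries. It rose by 1.17 on activation (SE 0.10, adjusted p = 4.5e-07), with no overlap of naïve and activated libraries. Msh3, which acts on larger loops, was at 12.1, 12.2 and 12.4 FPKM in naïve and 10.4, 11.8 and 10.3 FPKM in TCR activated libraries, a log2 fold change of -0.18 (adjusted p = 0.1).

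Mlh3, which codes for a nuclease subunit of mismatch repair, was lower after activation, at 3.08, 3.26 and 3.07 FPKM against 6.17, 6.21 and 5.52 FPKM, but its log2 fold change of -0.91 was within the fold limit. Msh5, known for its work in meiosis, was at 1.52, 0.98 and 1.30 FPKM in naïve, 0.61, 0.33 and 0.34 FPKM in TCR activated and 0.65, 0.35 and 0.48 FPKM in PI3Kdi libraries. The fall on activation had a log2 fold change of -1.4 (SE 0.28, adjusted p = 0.00064). With a pseudocount of 1 it was -0.67 (adjusted p = 0.00035), within the fold limit, and with 0.01 it was -1.58 and passed.

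Among excision repair genes 3 of 10 rose, and none passed as lower in limma. At an unadjusted p under 0.05, 3 of the 10 were lower, beside 4545 of all 11262 genes. Lig1, the ligase that closes excision gaps and joins Okazaki fragments in replication (gene ID 16881, chr7:13277175-13311426), stood apart from the rest. It was at 5.78, 6.41 and 6.50 FPKM in naïve, 118, 109 and 106 FPKM in TCR activated and 119.9, 106 and 114 FPKM in PI3Kdi libraries. Every activated library was more than 100 FPKM and every naïve one under 7 FPKM, a log2 fold change of 4.14 (SE 0.09, adjusted p = 1.7e-11). The next largest rise of the class was that of Ercc8, a gene of transcription-coupled repair, at 1.28.

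Lig3, the ligase of single-strand break repair and of mitochondria, was at 12.8, 12.5 and 14 FPKM in naïve, 25.1, 28.9 and 28.1 FPKM in TCR activated and 25.5, 26.1 and 26 FPKM in PI3Kdi libraries. It rose by 1.06 on activation (SE 0.09, adjusted p = 5.2e-07), and the call was lost without replicate 2 (0.98). Xrcc1, the scaffold that holds LIG3, was at 21.9, 20.9 and 29.1 FPKM, 53.5, 44.5 and 32.6 FPKM and 44.8, 44.3 and 36.1 FPKM in that order. Its activated replicates were spread more widely than those of Lig3, and its log2 fold change of 0.84 (SE 0.18, adjusted p = 0.0011) passed the fold limit only without replicate 3 (1.19).

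The nucleotide excision genes other than Ercc8 had values on both sides of 0, all within the fold limit. Ercc1, whose product cuts beside a lesion together with that of Ercc4, was at 14, 13.4 and 16.5 FPKM in naïve, 23.8, 20.2 and 24.1 FPKM in TCR activated and 20.3, 19.2 and 20.2 FPKM in PI3Kdi libraries. Ercc4 was at 8.31, 8.24 and 7.76 FPKM, 4.56, 4.32 and 4.48 FPKM and 4.51, 4.67 and 5.08 FPKM in the same order. The genes of this nuclease pair thus had log2 fold changes of opposite sign on activation, 0.63 (SE 0.11, adjusted p = 0.00019) for Ercc1 and -0.85 (SE 0.11, adjusted p = 2.3e-05) for Ercc4. The difference between them was not tested. Ercc5, the nuclease on the other side of the lesion, had -0.83, and Ercc6, which acts with ERCC8, had -0.54. Ercc2 and Ercc3, the helicases of the transcription factor TFIIH, had 0.01 and 0.18.

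End joining had 2 rises among 4 genes. Xrcc6 and Xrcc5 code for Ku70 and Ku80, the ring that grips broken ends. Xrcc6 (gene ID 14375, chr15:81987833-82040085) was at 27.3, 27.2 and 24.4 FPKM in naïve, 57.4, 65.3 and 56 FPKM in TCR activated and 59, 54.3 and 54.1 FPKM in PI3Kdi libraries, and Xrcc5 was at 18.9, 20.3 and 18.4, 32.6, 44.6 and 44.9 and 43.1, 42.6 and 44.4 FPKM in these groups. Both rose with no overlap, by 1.17 (SE 0.09, adjusted p = 2.1e-07) and 1.06 (SE 0.12, adjusted p = 6.1e-06). The call for Xrcc5 was lost without replicate 3 (0.96).

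Lig4 and Xrcc4 code for the ligase complex that seals the ends. Lig4 was at 3.06, 3.26 and 3.48 FPKM in naïve, 2.90, 3.34 and 3.87 FPKM in TCR activated and 2.89, 3.05 and 3.47 FPKM in PI3Kdi libraries, which overlapped throughout (log2 fold change 0.04 on activation, SE 0.15, adjusted p = 0.83). Xrcc4 was at 12.8, 14.6 and 15.5 FPKM, 10.7, 11.1 and 9.28 FPKM and 11.2, 11.1 and 10.7 FPKM in that order, a log2 fold change of -0.46 (SE 0.11, adjusted p = 0.0021). Activation thus went with more mRNA for the end-binding Ku pair, while the ligase genes of the pathway did not pass.

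Of the 3 genes in no class, Ercc6l, a DNA translocase known from mitosis, rose by 4.13 on the log2 scale, from 1.19, 1.25 and 1.15 FPKM to 18.5, 27.1 and 23.2 FPKM. Xrcc6bp1 and Rad54l2 had log2 fold changes of 0.83 and 0.37. Scaling every library to the same median FPKM moved the median of all genes in TCR v naïve from 0.005 to 0.122. No change of a repair gene that passed turned its direction under this or any other alternative tried.

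**Figure D2:**
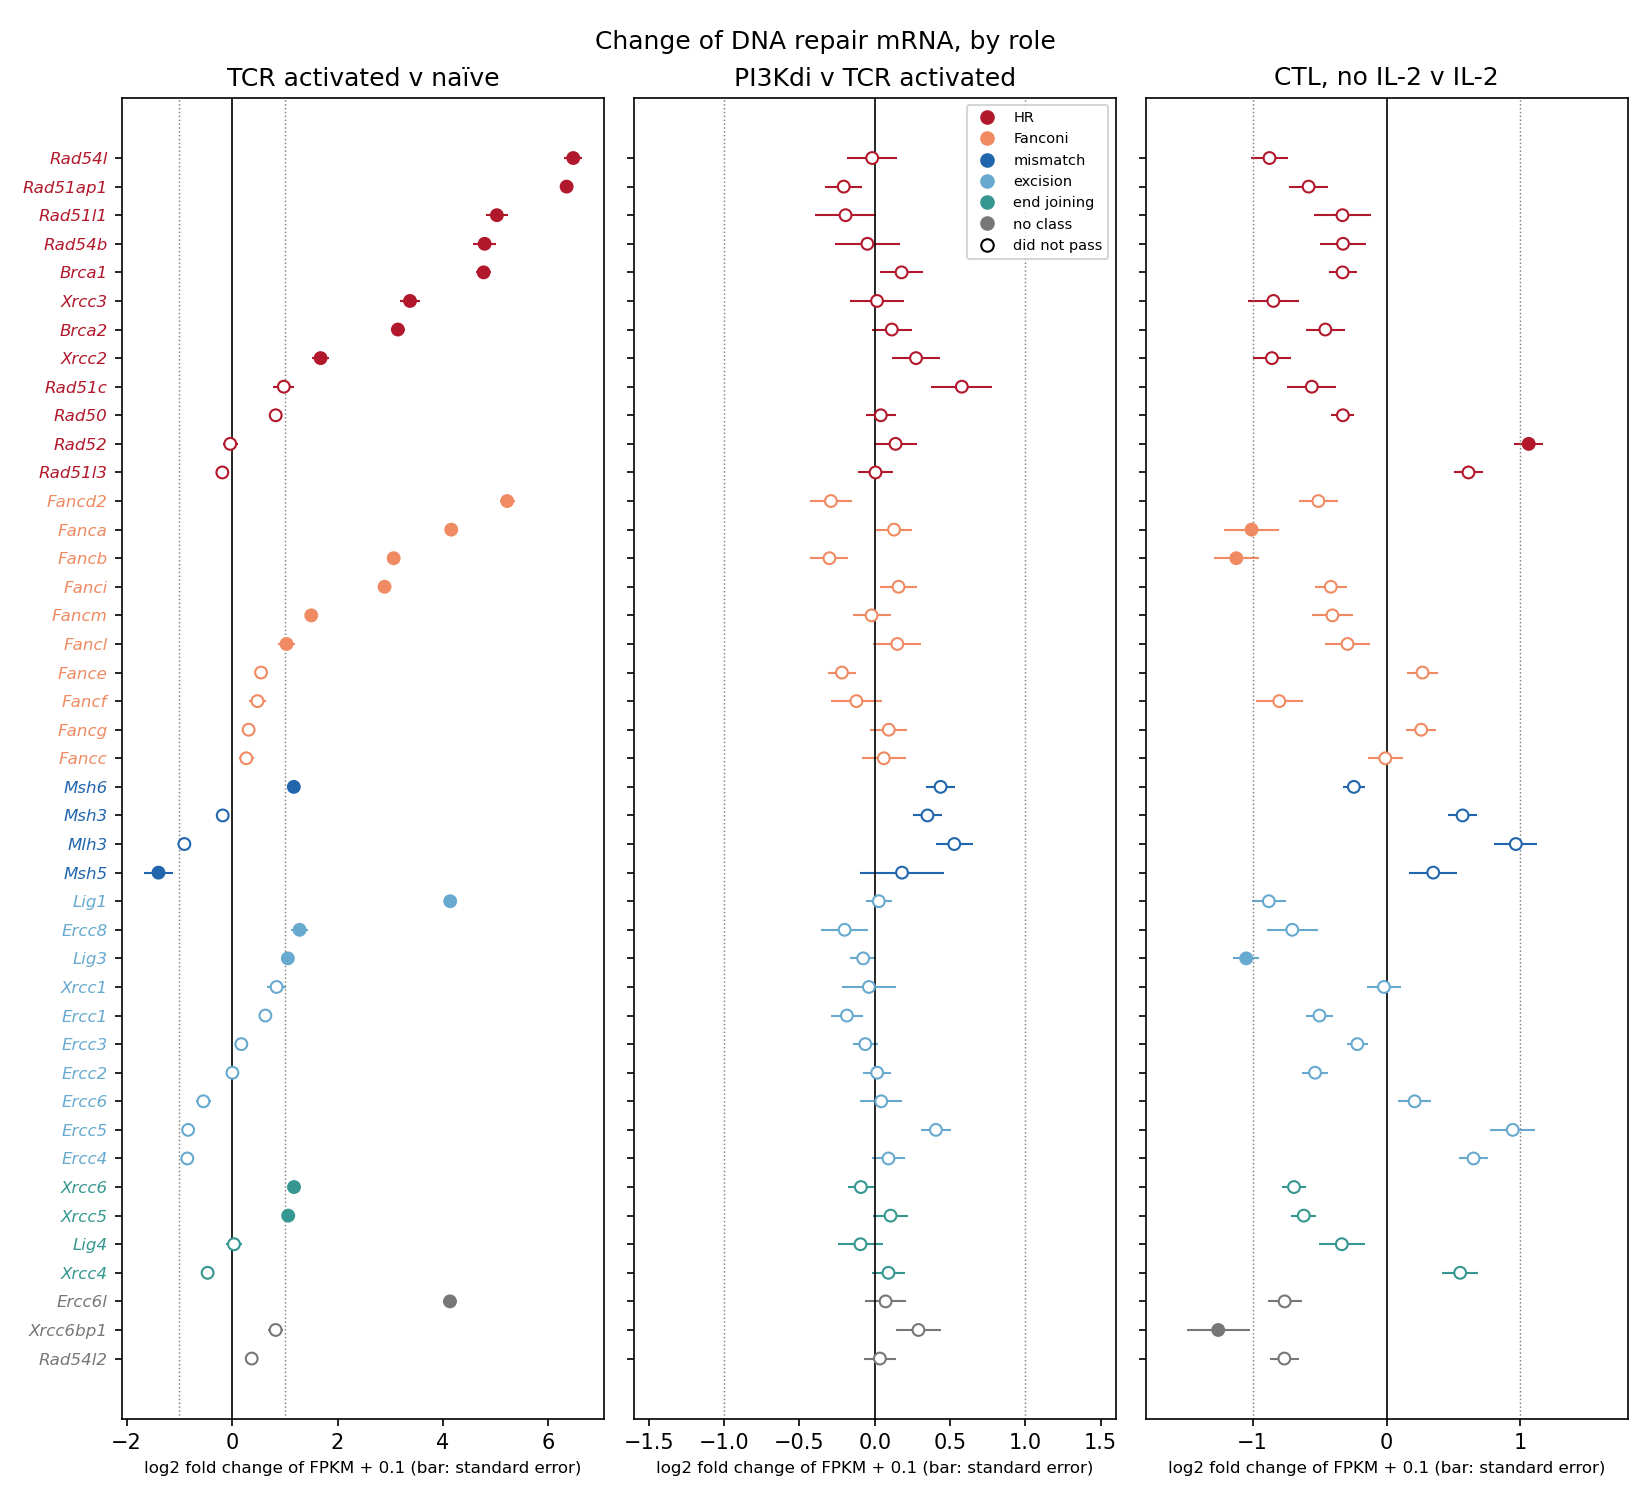
Log2 fold change of FPKM + 0.1 (points, with standard error bars) for repair genes by role in TCR activated v naïve, PI3Kdi v TCR activated and CTL without v with IL-2. Filled points passed limma at adjusted p under 0.05 and fold change over 2 or under 0.5 (dotted lines), and no point of the PI3Kdi panel is filled.

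The PI3Kdi comparison asked what the inhibitor did to these genes when present during activation. None of the 46 repair genes passed in limma, where 3.04% of all genes rose and 2.1% fell. At an unadjusted p under 0.05, 6 were higher and 2 lower, with shares over all genes of 16.1% and 15.4%. At adjusted p under 0.05 with no fold limit, 5 were higher and 0 lower, with 9.35% and 8.19% over all genes. The median log2 fold change over homologous recombination and Fanconi genes was 0.02, or -0.01 with median scaling and -0.02 to 0.04 with a replicate left out. Over mismatch, excision and end-joining genes it was 0.07, or 0.04 with median scaling and 0.03 to 0.08 with a replicate left out. The median over all genes was -0.008. In the PI3Kdi libraries the gap between the classes was -0.57, -0.60 and -0.67, beside -0.52, -0.49 and -0.59 without the inhibitor, in order of replicate number and wider in each with the inhibitor, which was not tested.

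The genes with the largest values here did not pass. Rad51c had a log2 fold change of 0.58 (SE 0.20, adjusted p = 0.073), at 3.05, 2.63 and 1.92 FPKM with PI3Kdi against 1.88, 1.72 and 1.35 FPKM without and 0.76, 0.83 and 0.75 FPKM in naïve cells. Its 3 PI3Kdi values were above all 3 TCR values. Mlh3 followed with 0.53 (SE 0.12, adjusted p = 0.013), at 4.81, 4.68 and 4.23 FPKM with the inhibitor, between its naïve and its TCR activated levels. On the lower side were Fancb at -0.30 (SE 0.13, adjusted p = 0.13) and Fancd2 at -0.29 (SE 0.14, adjusted p = 0.18). Fancd2 overlapped between the 2 groups and Fancb did not. Taken by equal replicate number, both were lower with the inhibitor in all 3, and with a replicate block their adjusted p was 0.17 and 0.14.

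The 5 genes with adjusted p under 0.05 and no fold limit were looked at after their values were seen. Among them were the mismatch genes Mlh3, Msh6 and Msh3 and the excision nuclease gene Ercc5. Msh6 had a log2 fold change of 0.44 (SE 0.10, adjusted p = 0.01), and its 3 PI3Kdi libraries lay above the 3 TCR ones, which in turn lay above the naïve ones. Msh3 had 0.35 (adjusted p = 0.028), at 14.6, 13.6 and 13.2 FPKM against 10.4, 11.8 and 10.3 FPKM. Ercc5 had 0.41 (adjusted p = 0.017), at 8.85, 9.30 and 8.91 FPKM against 6.44, 6.63 and 7.30 FPKM, and 12.7, 12.1 and 11.8 FPKM in naïve cells. With the inhibitor the sum over the 6 mismatch genes was 176.2, 174.3 and 167.4 FPKM, above its 3 values without, and the sum over the 13 recombination genes was 215.6, 197.6 and 198.1 FPKM, which overlapped.

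Against naïve cells, PI3Kdi treated cells showed 23 rises among the 46 repair genes, where 23.6% of all genes rose, and 1 fall, where 21.3% fell. This comparison shares its libraries with the other two, so its values are given beside theirs and not as a separate line of support. Homologous recombination and Fanconi genes had 16 rises of 23 with a median log2 fold change of 2.76, and mismatch, excision and end-joining genes 5 rises and 1 fall of 20 with a median of 0.31, against 0.004 over all genes. Rad54l rose by 6.45 (SE 0.17), Fancd2 by 4.93 (SE 0.14) and Lig1 by 4.16 (SE 0.09). Rad51c (1.56) and Xrcc6bp1 (1.12) passed here and not in TCR v naïve, while Lig3 (0.98) passed there and not here, and those differences were not tested beyond PI3Kdi v TCR. The calls for Rad51c, Xrcc6bp1, Ercc8 and Msh5 were lost with a pseudocount of 1 (0.98, 0.98, 0.99 and -0.60), and that for Ercc8 also without replicate 3 (0.91). Gained were Lig3 with median scaling (1.073) and without replicate 3 (1.025), and Xrcc1 without replicate 3 (1.053).

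**Figure D3:**
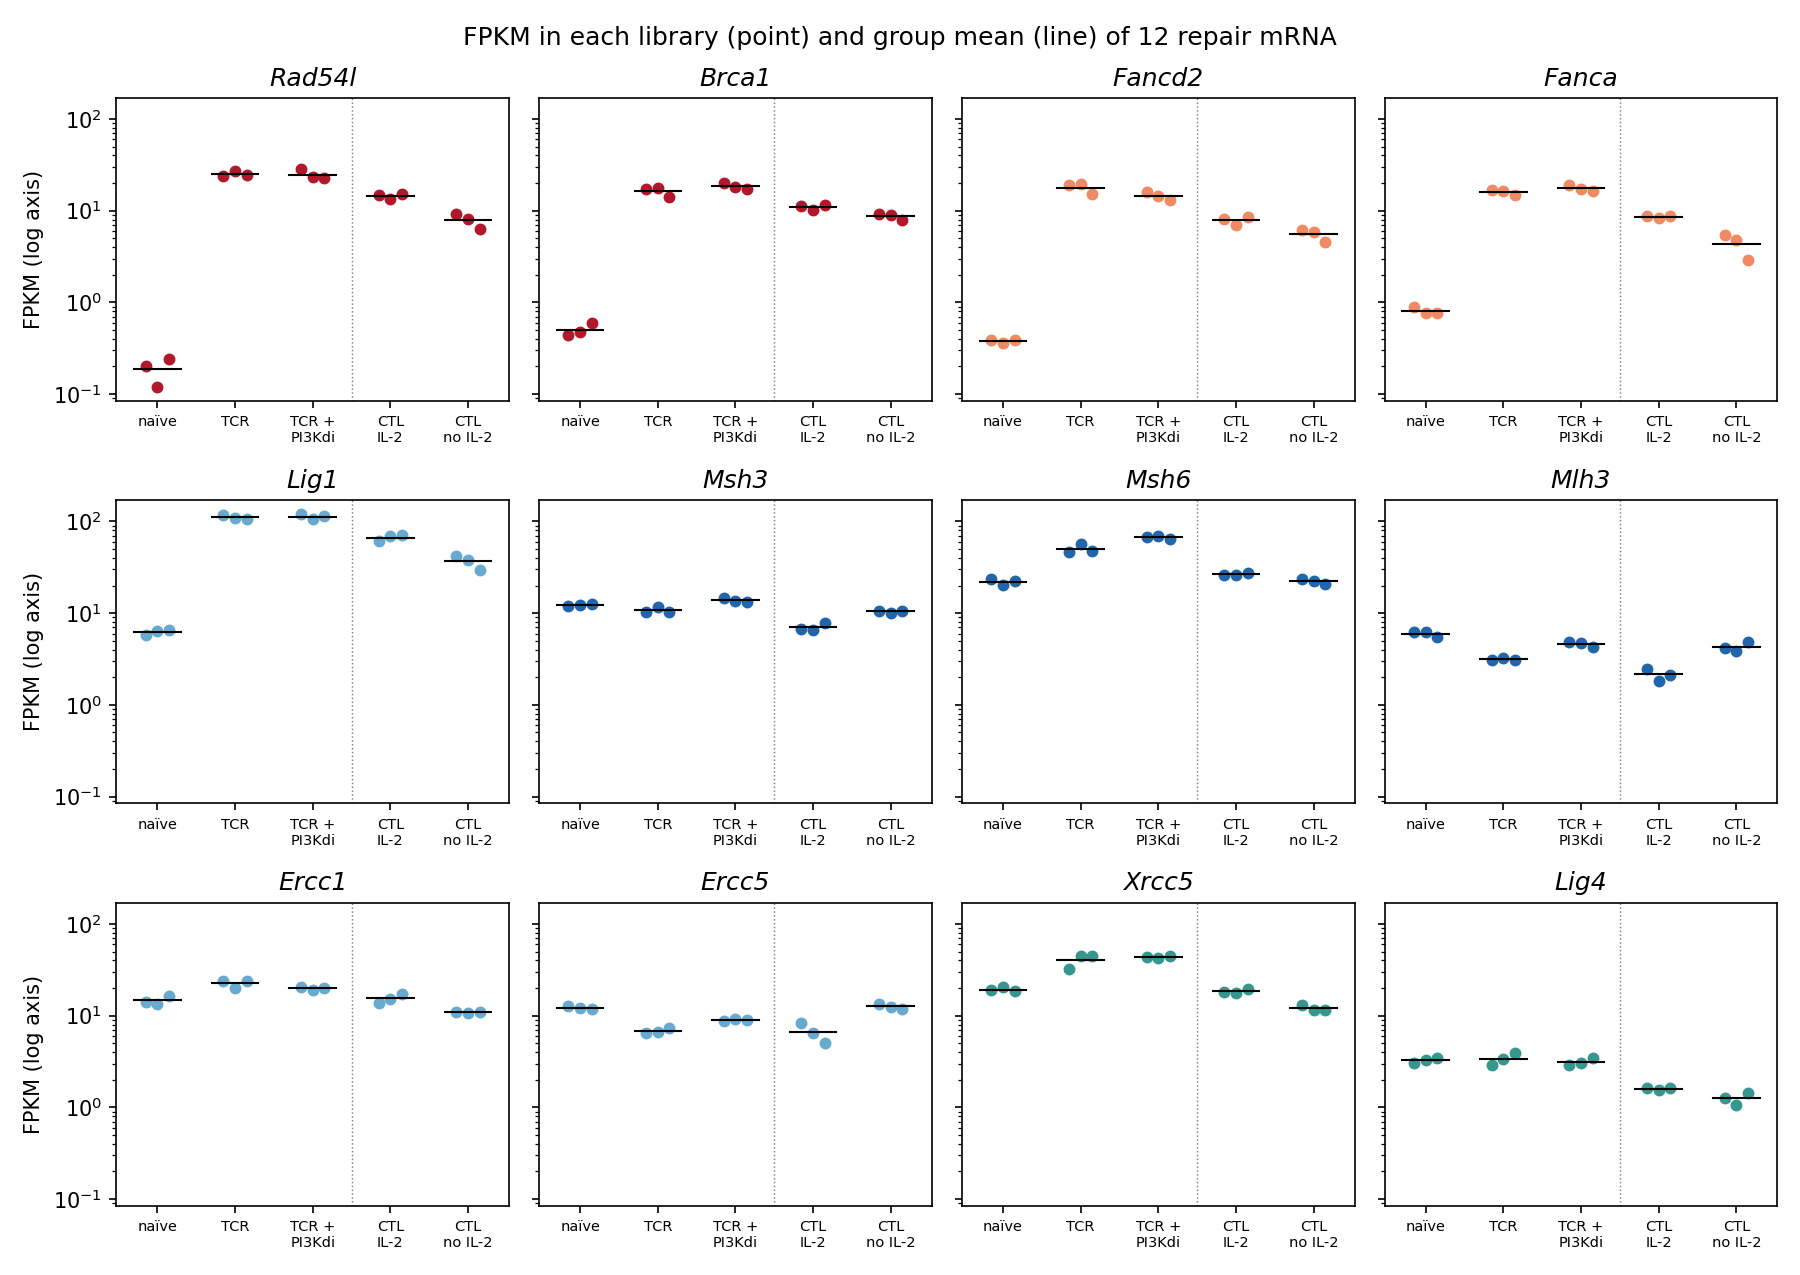
FPKM on a log axis of 12 repair genes in each of the 15 libraries (points) with group means (lines). Rad54l, Brca1, Fancd2 and Fanca were under 1 FPKM in every naïve library and above 13 FPKM in every activated one. Msh3, Mlh3, Ercc1, Ercc5 and Lig4 did not pass in any comparison. The dotted line parts tables normalised apart, so levels across it were not tested.

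The CTL comparison asked what 24 h without IL-2 did to effector cells. In CTL with IL-2 every repair gene was listed above 0, and 45 or 46 of the 46 were at 1 FPKM or more in each library. Rad54l was at 14.8, 13.3 and 15 FPKM, Fancd2 at 8.17, 6.95 and 8.46 FPKM and Lig1 at 61, 68.6 and 71 FPKM. Levels were not tested against those of naïve or activated cells, since the tables were normalised separately. The gap between homologous recombination and Fanconi genes and the other classes was -0.58, -0.68 and -0.58 with IL-2 and -0.84, -0.85 and -1.01 without. These did not overlap, and the means were -0.61 (SD 0.06, n = 3) and -0.90 (SD 0.09, n = 3).

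Without IL-2, 1 of the 46 repair genes rose, where 14.3% of all genes rose, and 4 fell, where 13.9% fell. The share of repair genes that passed was thus below that of all genes. At adjusted p under 0.05 with no fold limit 8 were higher and 28 lower, where 35.2% of all genes were higher and 36.6% lower. Of the 23 homologous recombination and Fanconi genes, 15 were lower and 2 higher by this looser rule, with a median log2 fold change of -0.42 against -0.001 over all genes. Of the 20 mismatch, excision and end-joining genes, 10 were lower and 6 higher, with a median of -0.23. Within these, 3 of the 6 mismatch genes were higher and 2 lower.

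The 5 genes that passed came from several roles. Xrcc6bp1 fell by 1.26 on the log2 scale (SE 0.24, adjusted p = 0.00098), from 4.32, 5.52 and 5.35 FPKM with IL-2 to 1.55, 3.08 and 1.79 FPKM without, and in the other table it was at 4.52, 4.60 and 4.07 FPKM in naïve, 6.63, 7.99 and 9.16 FPKM in TCR activated and 9.11, 11.2 and 8.73 FPKM in PI3Kdi libraries. Fancb, of the Fanconi core complex, fell by 1.12 (SE 0.17, adjusted p = 0.00023), from 3.78, 3.81 and 4.11 FPKM to 2.18, 1.48 and 1.62 FPKM. None of the values without IL-2 reached the lowest with it in either gene.

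Lig3 fell by 1.05 (SE 0.10, adjusted p = 1.1e-05), from 14.7, 15.3 and 17.3 FPKM to 7.55, 7.37 and 7.73 FPKM. Fanca fell by 1.01 (SE 0.20, adjusted p = 0.0015), from 8.72, 8.32 and 8.85 FPKM to 5.48, 4.75 and 2.92 FPKM. Replicate 3 was the lowest Fanca value without IL-2, and without that replicate the log2 fold change was -0.73. Rad52 was the gene that rose, by 1.06 (SE 0.11, adjusted p = 2.2e-05), from 7.79, 6.96 and 6.72 FPKM to 13.9, 14.6 and 16.7 FPKM, all above the values with IL-2. These calls sat close to the fold limit. All 5 were lost with a pseudocount of 1 (Xrcc6bp1 -0.98, Fancb -0.84, Lig3 -0.97, Fanca -0.87 and Rad52 0.98), Lig3 (-0.997) and Rad52 (0.94) also without replicate 3, and Fanca also with median scaling (-0.99).

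The other recombination genes were mostly lower within the fold limit. Rad54l was at 9.18, 8.16 and 6.33 FPKM without IL-2, a log2 fold change of -0.87 (SE 0.14, adjusted p = 0.00035), and no value reached those with IL-2. Brca1 went from 11.2, 10.3 and 11.5 FPKM to 9.27, 8.95 and 7.96 FPKM (-0.33) and Brca2 from 4.43, 3.34 and 4.34 FPKM to 2.83, 2.93 and 2.91 FPKM (-0.46). Fancd2 was at 6.13, 5.92 and 4.52 FPKM without IL-2 (-0.51, adjusted p = 0.01). Rad51c went from 2.0, 1.79 and 2.22 FPKM to 1.49, 1.45 and 1.07 FPKM (-0.56). Against this direction Rad51l3 stood at 7.28, 7.95 and 7.49 FPKM without IL-2 and 5.0, 5.10 and 4.66 FPKM with it (0.61), and Fance (0.27) and Fancg (0.26) were on the higher side without passing. Fancc was at 2.97, 3.29 and 2.99 FPKM without and 2.98, 3.29 and 3.04 FPKM with IL-2 (-0.01, adjusted p = 0.95).

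The mismatch genes differed in direction. Msh6 was at 26.3, 25.8 and 27.2 FPKM with IL-2 and 23.7, 22.5 and 20.7 FPKM without, a log2 fold change of -0.24 (SE 0.08, adjusted p = 0.024). Mlh3 was at 2.48, 1.83 and 2.12 FPKM and 4.12, 3.84 and 4.86 FPKM (0.97, adjusted p = 0.00045), and Msh3 at 6.71, 6.53 and 7.86 FPKM and 10.5, 10.2 and 10.6 FPKM (0.57, adjusted p = 0.001). The groups did not overlap in any of these 3 genes, of which Msh6 was lower and the others higher without IL-2, all within the fold limit. Msh5 was at 1.03, 0.93 and 1.22 FPKM and 1.44, 1.45 and 1.23 FPKM (0.35).

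For excision repair, Lig1 was at 42.1, 38 and 29.8 FPKM without IL-2, a log2 fold change of -0.88 (SE 0.13, adjusted p = 0.00017), which passed the fold limit without replicate 1 (-1.05). Ercc1 went from 13.9, 15.3 and 17.4 FPKM to 10.9, 10.7 and 11.1 FPKM (-0.50) and its nuclease partner Ercc4 from 4.22, 4.41 and 4.09 FPKM to 6.51, 6.60 and 7.02 FPKM (0.65). As on activation, this pair had values of opposite sign, here too with no overlap. Xrcc1 was at 15.8, 21.4 and 21.4 FPKM with IL-2 and 19.4, 20.6 and 17.5 FPKM without (-0.02), overlapping. Ercc5 and Mlh3, at log2 fold changes of 0.94 and 0.97, passed the fold limit only without replicate 1 (1.08 and 1.10).

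In end joining Xrcc6 went from 22.7, 21.4 and 22.8 FPKM to 14.8, 13.5 and 13.1 FPKM (-0.69) and Xrcc5 from 18.3, 17.7 and 19.7 FPKM to 13.2, 11.5 and 11.6 FPKM (-0.62). Lig4 was at 1.62, 1.55 and 1.61 FPKM with IL-2 and 1.26, 1.05 and 1.45 FPKM without (-0.33), and Xrcc4 at 7.21, 9.20 and 7.11 FPKM and 10.9, 10.5 and 13.2 FPKM (0.55). Both Ku genes were thus lower in each library without IL-2, and Xrcc4 was higher. In the same libraries the 5 naïve T cell markers summed to 137 to 174 FPKM with IL-2 and 1256 to 1467 FPKM without, and the 5 activation markers to 9510 to 12291 FPKM with and 429 to 698 FPKM without. Cd79b, the only B cell marker of 5 in that table, was at a mean of 4.33 FPKM with IL-2 and 15.7 FPKM without, and Itgax, the only dendritic marker of 4, at 0.31 and 4.55 FPKM. On the CD4 list Zbtb7b was at 18.1 and 27.0 FPKM and Cd4 at 0.23 and 1.4 FPKM. Of 6 myeloid markers 3 were in the table, Fcer1g at 47.0 and 9.48 FPKM, Cd68 at 7.69 and 8.78 FPKM and Itgam at 0.29 and 4.09 FPKM. Of 4 stroma markers Pecam1 was at 27.4 and 55.2 FPKM and Pdgfrb at 0.45 and 1.27 FPKM, of 3 NK markers Klrb1c at 1.65 and 2.74 FPKM, and no erythroid marker was in that table. Their part in the result was not tested.

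Other genes of the same pathways, from a list of 94 of which 82 were in each table, are set beside these. On TCR activation 33 of the 82 rose and 10 fell, with a median log2 fold change of 0.70. Over all genes 25.0% rose and 23.7% fell. Of 38 further recombination and Fanconi genes 21 rose and 2 fell (median 1.25), and of 44 further mismatch, excision and end-joining genes 12 rose and 8 fell (median 0.53). Dna2 and Exo1, nucleases that resect broken ends, were at 0.28, 0.11 and 0.14 and 0.11, 0.20 and 0.13 FPKM in naïve cells and at 18.8, 26.1 and 21.6 and 16.3, 19.1 and 18.9 FPKM after activation, log2 fold changes of 6.37 and 6.22. Neil3, a glycosylase, rose from 0, 0.07 and 0.04 FPKM (the first a blank cell) to 9.71, 6.15 and 4.49 FPKM. These genes, like Rad54l and Rad51ap1, were near 0 in naïve cells.

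The largest fall was that of Dntt, the polymerase that adds bases at antigen receptor joints, from 17.9, 24.5 and 19.4 FPKM in naïve to 0.33, 0.10 and 0.33 FPKM in activated cells (-5.94, adjusted p = 2.7e-08). Neil1, another glycosylase, fell from 15.2, 16.2 and 14.6 to 5.58, 4.16 and 3.79 FPKM (-1.76), and Ddb2, which recognises ultraviolet damage, from 34.6, 33.1 and 37.1 to 15.1, 9.56 and 9.07 FPKM (-1.66). With PI3Kdi none of the 82 passed against TCR activation in limma, and 11 were higher and 6 lower at an unadjusted p under 0.05. The shares over all genes at that p were 16.1% and 15.4%. PI3Kdi cells against naïve had 32 rises and 5 falls, led by Dna2 (6.4), Exo1 (6.32) and Neil3 (5.35), and by Dntt (-5.99), Neil1 (-1.6) and Neil2 (-1.58). Among all genes 23.6% rose and 21.3% fell in that comparison.

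In CTL without IL-2, 6 of these 82 rose and 18 fell, with a median log2 fold change of -0.44. Of all genes 14.3% rose and 13.9% fell. Dna2 fell from 9.97, 10.5 and 11.2 FPKM to 2.32, 2.53 and 1.90 FPKM (-2.19), more than any of the 46 did. Ung and Apex1, which start base excision, fell from 12.1, 13.1 and 13.6 to 3.39, 3.04 and 2.43 FPKM (-2.11) and from 49.8, 54.7 and 56.4 to 15.6, 13.4 and 12.1 FPKM (-1.97). In the other direction Neil2 rose from 0.16, 0.24 and 0.21 to 1.11, 1.23 and 1.12 FPKM (2.05), Neil1 from 4.43, 4.61 and 4.35 to 12.9, 13 and 19.3 FPKM (1.71) and Ddb2 from 10.5, 9.96 and 11.1 to 33.3, 30.5 and 36.4 FPKM (1.65). Of the 38 further recombination and Fanconi genes 9 fell, and none rose in limma. At an unadjusted p under 0.05, 3 of the 38 were higher, beside 4072 of all 11211 genes.

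Genes of DNA replication are set beside these too. All 17 on a list of S phase genes rose on activation (median log2 fold change 3.43), led by Rrm2 (7.93), a subunit of ribonucleotide reductase, Cdc6 (7.36), which loads the replicative helicase, and Ccne2 (6.78), an S phase cyclin. Rrm2 went from 0.85, 0.79 and 0.94 FPKM to 209, 253 and 243 FPKM. With PI3Kdi none of the 17 passed against TCR activation in limma, and 3 were higher and 3 lower at an unadjusted p under 0.05. In CTL without IL-2, 11 of 17 fell (median -1.21), led by Cdc6 (-1.72), Ccne1 (-1.67) and Mcm2 (-1.62). Against naïve cells all 17 rose with PI3Kdi (median 3.54), again led by Rrm2 (7.56), Cdc6 (7.26) and Ccne2 (6.45).

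Of 12 mitosis genes all rose on activation (median 7.16), 2 fell with PI3Kdi (median -0.58) and 1 fell in CTL without IL-2 (median -0.51). Among 14 genes on an E2F list, which holds the E2F factors and their regulators, 8 rose and 1 fell on activation, none passed with PI3Kdi in limma with 4 higher and 4 lower at an unadjusted p under 0.05, and 1 rose and 7 fell without IL-2. Of 14 checkpoint genes 5 rose and 1 fell on activation, and with PI3Kdi 1 fell, Cdkn1a (-1.66, adjusted p = 0.0086). Without IL-2, 2 of the 14 fell. Beside the counts of the S phase list and of these lists, 25.0% of all genes rose and 23.7% fell on activation. In PI3Kdi v TCR the shares were 3.04% and 2.1%, or 16.1% and 15.4% at an unadjusted p under 0.05. In PI3Kdi v naïve 23.6% of all genes rose. Without IL-2 the shares were 14.3% and 13.9%, and the mitosis and checkpoint falls were below or near the latter. The part of cell cycle entry in the values of the repair genes was not tested.

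Promoter sequence was compared as a feature that the choice of genes did not use. RefSeq windows of 250 bases before to 50 after a gene's start were found for 35 of the 46 repair genes (build GRCm38.p6), and a gene may have several starts. They were searched on both strands for TTTCCCGC, TTTCGCGC, TTTGCCGC and TTTGGCGC, letters in which E2F factors are known to bind. At least 1 match was found in 8 of the 35 genes (22.9%), beside 2.6% of all 27025 genes with such windows and 4.92% of the 8520 of those that were also in the FPKM tables. The 8 were Brca2, Fancg, Rad51c, Msh3, Msh5, Msh6, Lig1 and Xrcc6. By class they were 3 of 17 homologous recombination and Fanconi genes and 5 of 17 mismatch, excision and end-joining genes. In Msh3 the matches to TTTGGCGC and TTTCGCGC overlap.

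The window around a match is shown for Lig1, Msh6 and Xrcc6, the largest rises of their classes, for Brca2, which also rose, and for Msh5 as the gene that fell. That of Brca2 lies at chr5:150522427-150522486 (plus strand), Lig1 at chr7:13278826-13278875 (plus strand), Msh6 at chr17:87975039-87975098 (plus strand), Xrcc6 at chr15:82016297-82016356 (plus strand) and Msh5 at chr17:35046654-35046713 (minus strand), all in GRCm38.p6. Each sequence is written 5′ to 3′ on the strand of its gene, and capitals mark the match or its reverse complement.
Brca2: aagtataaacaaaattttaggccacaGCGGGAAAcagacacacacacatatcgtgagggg
Lig1: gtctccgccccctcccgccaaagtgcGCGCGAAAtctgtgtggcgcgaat
Msh6: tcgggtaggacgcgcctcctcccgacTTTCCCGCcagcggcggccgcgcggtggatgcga
Xrcc6: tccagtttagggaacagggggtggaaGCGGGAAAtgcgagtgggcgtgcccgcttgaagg
Msh5: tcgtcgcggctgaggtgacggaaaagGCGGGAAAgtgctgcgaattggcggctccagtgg
Capitals are TTTCCCGC or its reverse complement in all but Lig1, whose capitals are the reverse complement of TTTCGCGC. The match stood in genes that rose 17.6-fold (Lig1) and 2.25-fold (Msh6) and in Msh5, which fell, and it is a description of letters and not of binding.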

How the data were processed

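RNA sequencing libraries of CD8+ T cells were compared, 9 naïve or 24 h activated and 6 CTL. Values are FPKM from 2 deposited tables; per the labels and the study's methods the authors aligned reads with STAR 2.5.2b to mm10, counted them with Subread 1.5.1, filtered low genes and made FPKM in edgeR from TMM-scaled sizes and summed exon length. For the CTL table the last steps are assumed. Blank cells were read as 0.

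FPKM + 0.1 were put on the log2 scale and fitted over all genes of each table with limma 3.58.1 (R 4.3.3, trended empirical Bayes, group as the only term, 9 or 6 libraries a fit), in place of the voom fit on counts that the study describes. P values were adjusted by Benjamini-Hochberg over all genes. The fit was tested on simulated data. Members and lists were chosen with earlier results of these data known, and no list was tested as a set. Values in every library are given for core genes of each role, the extremes of each role class in TCR v naïve and genes that passed in PI3Kdi v TCR or CTL (or, where none did, the 2 with the largest values in each direction). From the lists of other repair and S phase genes, the 3 largest rises and falls are named. Some members enter the counts and medians only and are not described singly. Gene positions are from RefSeq, matched by gene ID, or by a RefSeq synonym for Rad51l1 and Rad51l3. Exon overlaps are from GENCODE vM21, matched by symbol. Alternatives were other pseudocounts (1, 0.01), genes with a mean FPKM of 1 or more alone, scaling to equal medians, a replicate block, no intensity trend, only the 2 groups compared, other fold limits (1.5, none) and leaving out each replicate. Among the fits, equal replicate numbers were taken as the same pool for the block alone. The class gap, Fancb and Fancd2 in PI3Kdi v TCR were also compared by replicate number. No library was left out. Libraries of a group had a Pearson r over genes of 0.983 to 0.995. Python 3.11.15 with pandas 2.3.3 drew up the tables.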

Additional observations from a re-analysis of the deposited data

How the results depend on the processing

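Under the 12 alternatives (11 in CTL, where only 2 groups exist) no change of a member that passed turned its direction, and the replicate block changed no member's call in any comparison (23, 0, 24 and 5 passed, as without it). The alternatives for other repair genes, and leaving out replicates for the level difference between classes, were chosen after seeing the data.

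Counts that moved did so mostly with the fold limit. With none, the members that passed were 39 (16 mismatch, excision and end joining) in TCR v naïve, 5 (5) in PI3Kdi v TCR, 38 (16) in PI3Kdi v naïve and 36 (17 homologous recombination and Fanconi, 16 other) in CTL, and other repair genes 70, 6, 73 and 65. At 1.5-fold, mismatch, excision and end-joining genes that passed were 12 in TCR v naïve and 11 in PI3Kdi v naïve, CTL had 20 members (9 and 8 in the 2 sets), and other repair genes were 2 in PI3Kdi v TCR, 60 in PI3Kdi v naïve and 40 in CTL. With no limit, 4609 of all 11262 genes were higher and 4487 lower in TCR v naïve. The numbers were 4512 and 4394 in PI3Kdi v naïve and 1053 and 922 in PI3Kdi v TCR. In CTL they were 3948 and 4108 of 11211. At 1.5-fold the share over all genes was not counted. A looser limit admits more genes by construction. For the rest the cause was not tested.

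With a pseudocount of 1, CTL counts were 0 members, 0 and 0 in the 2 sets. The medians of homologous recombination and Fanconi genes were 2.19 in TCR v naïve and 2.12 in PI3Kdi v naïve, that of the other set in PI3Kdi v TCR 0.052, and the level difference was -2.12 in naïve and -0.78 in CTL without IL-2. With 0.01 they were 2.85 in PI3Kdi v naïve and -3.17 in naïve. At a mean FPKM of at least 1 the medians of mismatch, excision and end-joining genes were 0.49, 0.043 and 0.45 in the first 3 comparisons, and level differences -3.07, -0.79 and -0.87 in naïve, TCR and PI3Kdi. With median scaling their medians were 0.45, 0.041 and 0.40, and those of homologous recombination and Fanconi genes -0.011 in PI3Kdi v TCR and 2.85 in PI3Kdi v naïve.

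Leaving out a replicate gave 2 to 8 members, 1 to 3 homologous recombination and Fanconi and 0 to 4 other genes in CTL, with medians of -0.56 to -0.32 and -0.28 to -0.18. Other repair genes were 0 to 1 in PI3Kdi v TCR and 17 to 27 in CTL. The medians were -0.016 to 0.042 and 0.028 to 0.084 in PI3Kdi v TCR, 2.73 to 2.82 and 0.26 to 0.37 in PI3Kdi v naïve. Naïve values near 0.3 FPKM rest on few reads.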
